A study of Mus musculus with 9 samples.

Results

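The genes described here encode the subunits, regulators and assembly factors of the proteasome, the protease that degrades ubiquitin-tagged proteins. They were taken as every row of the deposited gene table whose symbol starts with Psm, one of the letters a to g and a digit. The pattern matched 50 of 14771 genes, and 48 of the 50 passed the low-count filter that left 11281 genes for testing. The other two, Psma8 and Psmb11, known from testis and thymus, had at most 1 count in any library and are not described further. RNA came from MH-S, an established cell line of mouse alveolar macrophages, with 3 libraries in each of 3 groups. CON cells received 1640 medium, and LPS cells received 1 µg/ml lipopolysaccharide, a bacterial cell wall component sensed by the receptor TLR4, for 4 h. SUR cells are labelled Suramin, and the treatment protocol describes them as given 200 µM suramin, a polyanionic drug, along with LPS at 1 µg/ml over 4 h. No group had suramin alone. Whether the 9 libraries stem from different cultures is not in the labels. The p-values therefore rest on a spread between libraries that may not be the spread between independent cultures. In bulk RNA of 1 cell line, a change in every cell and a change in a share of the cells cannot be told apart.

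The core particle of the proteasome is a barrel of stacked rings built from alpha subunits (Psma genes), which form the gates, and beta subunits (Psmb genes), of which Psmb5, Psmb6 and Psmb7 carry the catalytic sites. The regulatory particle holds a ring of ATPases (Psmc genes) that unfold substrates, and non-ATPase subunits (Psmd genes) that bind and remove ubiquitin chains. In cells exposed to interferon, Psmb8, Psmb9 and Psmb10 can take the places of Psmb5, Psmb6 and Psmb7 to form the immunoproteasome, and Psme1 and Psme2 form an alternative cap, PA28, so that more peptides suit presentation by MHC class I. The other matched genes are assembly chaperones (Psmd5, Psmd9, Psmd10 and the Psmg genes), further activators (Psme3, Psme4), an inhibitor (Psmf1), Psme2b, a copy of Psme2, and Psmc3ip, which only shares the name and acts in meiotic recombination.

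Library totals ran from 15729402 to 16675250 counts, and the matched genes took 0.571% to 0.648% of them. Of 12 macrophage markers, 12 were in the table, but only 8 passed the low-count filter. The 12 summed to 4568 to 7466 CPM (counts relative to the library total, scaled by TMM) per library. None of 6 epithelial markers was in the table. Of 6 fibroblast and endothelial markers 5 were, all but Pdgfra, and summed to at most 1.21 CPM, and of 8 lymphocyte and neutrophil markers 3 were, and summed to at most 0.296 CPM. The label check Il1b, an inflammatory cytokine, was 4.55, 1.40 and 0.0595 CPM in the CON libraries, 98.3, 223 and 262 CPM in LPS and 12.2, 15.9 and 30.2 CPM in SUR. Tnf, another cytokine, was 404, 92.1 and 22.1 CPM in the CON libraries and 1932, 2002 and 2352 CPM in LPS. In SUR it was 1326, 1159 and 1597 CPM, so it stayed nearer to LPS than Il1b did. The CON library numbered 1 was the highest of its group for both genes. Libraries with the same number deviated together from their group means, which pairs them across groups, so values from a fit with the replicate number as a block are given beside the unblocked ones where they change a call. The exons of 9 of the 50 genes share bases with another protein-coding gene in GENCODE vM21, 7 of them on the opposite strand. Overlaps with other types of genes were not searched. Since the sources used here do not say whether reads were counted by strand, reads in such shared bases cannot be told apart.

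Mean levels of the core and regulatory particle genes ran from 53.8 FPKM for Psmd12 to 364 FPKM for Psmd8. The median FPKM (the authors' unit, scaled for gene length and library size) over the 9 libraries was 272 for the 3 constitutive catalytic genes, 233 for the 4 other core beta genes, 170 for the 7 alpha ring genes, 93.6 for the 6 ATPases and 92.3 for the 11 non-ATPase subunits. The highest levels were those of Psmd8, a regulatory particle subunit, at 364 ± 16.9 FPKM (SD, n = 9), Psmb5 at 353 ± 20.8 FPKM and Psmb4 at 333 ± 21.6 FPKM, and these neighbours in the order differ by less than the larger SD of each pair. The 5 immunoproteasome genes ran from Psme2 at 224 ± 18.4 FPKM over Psme1 at 119 ± 5.76, Psmb8 at 88.3 ± 4.91 and Psmb10 at 54.8 ± 2.88 to Psmb9 at 28.8 ± 3.67 FPKM. Assembly factors were low, with a median of 38.3 FPKM for the 4 Psmg genes and 29.6 FPKM for Psmd5, Psmd9 and Psmd10. The lowest tested genes were Psmc3ip at 4.88 ± 1.19 FPKM and Psme2b at 2.49 ± 1.28 FPKM, and reads of Psme2b may be shared with Psme2 by the authors' counting.

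**Figure D1:**
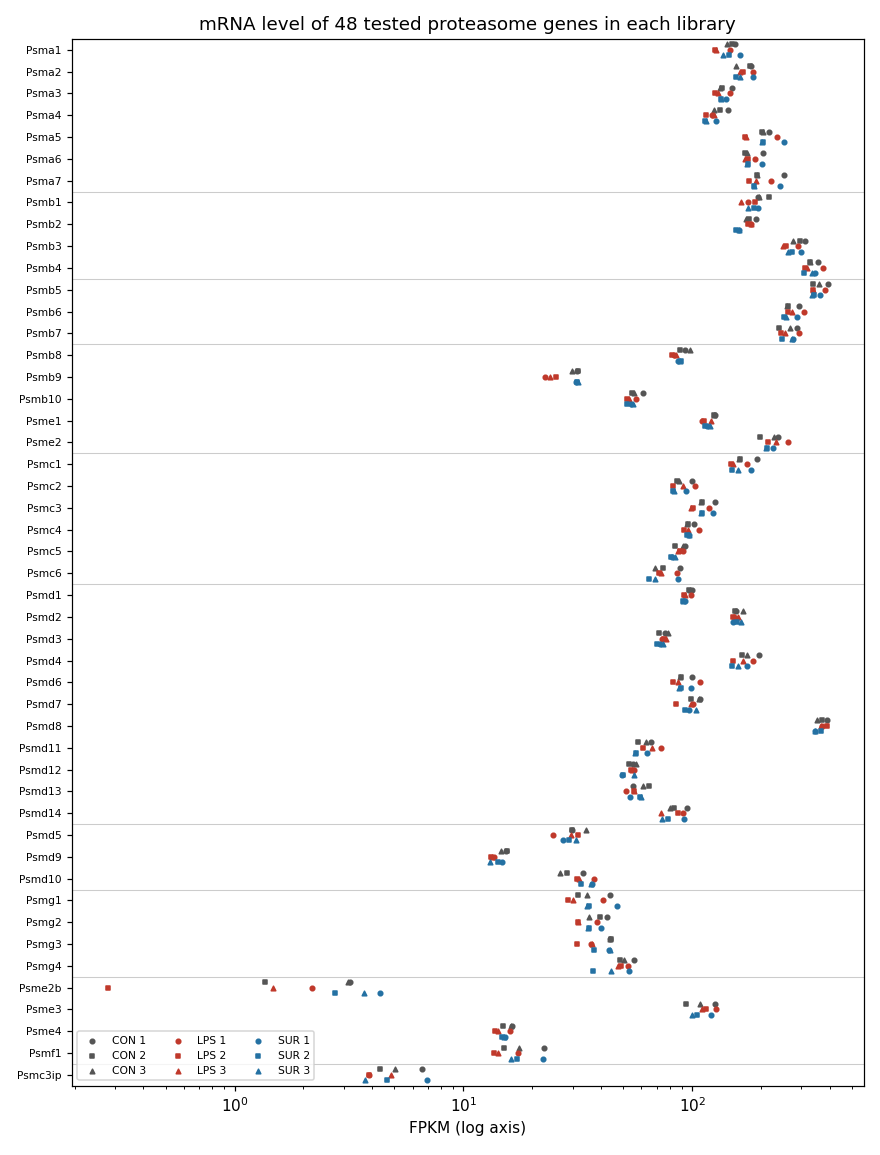
The points give the FPKM of the 48 tested proteasome genes in each of the 9 libraries on a log axis, with colour for the group and shape for the replicate number, and grey lines between classes of subunits. Core and regulatory particle genes lie between 49.5 and 390.4 FPKM in all libraries and Psmb9 between 22.8 and 31.6.

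The first comparison, LPS against CON, asks what LPS changed. No proteasome gene passed the test: 0 of 48 were called by edgeR's quasi-likelihood test at 0.05, adjusted by Benjamini-Hochberg over all 11281 genes. Of all genes 18.3% were called, 8.98% higher and 9.36% lower. Without adjustment 10 of 48 had a p under 0.05, against 29.2% of all genes, and DESeq2 called 3, Psmd10, Psme2 and Psmd11, all higher. The result also depended on the CON library numbered 1. The fit without it called 4 higher, Psmd10, Psmd11, Psme2 and Psme3, against 9.97% of all genes, and 0 lower, against 8.27%. In that fit the median log2 fold change was 0.13 over the 48 genes and 0.0018 over all genes. The 95% interval of the log2 fold change lay within 0.5 of 0 for 44 of 48 genes, against 53.3% of all genes. The 4 whose intervals reached further from 0 were Psmd10, Psmf1 and the scarce transcripts Psmc3ip and Psme2b.

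Differences were small and, for the regulatory particle, mostly positive on the TMM scale, with 15 of 17 genes above 0. With upper-quartile scaling 10 of these 17 were above 0, and on the log2(FPKM + 1) scale 40 of all 48 members were below 0. The median log2 fold change was 0.07 over the 48 genes and -0.01 over all tested genes, so the members stood 0.08 above the median of all genes. Upper-quartile scaling moved both medians down, to -0.03 and -0.10, and so turned the sign of the members' median. It shifts all genes almost alike, so the distance of 0.08 could hardly change and its return is no separate result. With this scaling 0 genes were called higher and 2 lower (Psmb9 and Psmg3), against 6.78% and 15.1% of all genes. On the log2(FPKM + 1) scale the medians were -0.07 and -0.12. By class the median was 0.13 for the 17 regulatory particle genes, 0.09 for the 14 constitutive core genes, 0.02 for the 5 immunoproteasome genes and -0.0013 for the 7 assembly chaperones. LPS libraries lay entirely above CON libraries for 12 of 48 genes, against 15.2% of all genes, and entirely below for 2, Psmb9 and Psmg3, against 16.8%. With the replicate block, 14 were called higher, against 20.1% of all genes, and 2 lower, again Psmb9 and Psmg3, against 21.7%. Of the 14, 8 were regulatory particle genes. The split moved with the scaling, since the block with upper-quartile scaling called 4 higher (Psmd10, Psmd11, Psme2 and Psme3) and 9 lower.

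Psmd10, also called gankyrin, a chaperone of the regulatory particle base, had the largest positive difference. Its levels were 37.5, 32.5 and 29.7 CPM in CON, 45.8, 39.6 and 40.1 CPM in LPS and 40.8, 37.0 and 40.7 CPM in SUR. The LPS libraries were all above the CON libraries, while the SUR libraries overlapped the LPS ones. The log2 fold change of LPS against CON was 0.33 ± 0.10 (SE), with an adjusted p of 0.0533, just above the threshold, and of 0.00172 with the replicate block. Psmg3, a chaperone of core particle assembly, was 24.8, 26.0 and 24.9 CPM in CON and 22.4, 20.4 and 23.3 CPM in LPS, all LPS libraries being below all CON libraries. Its log2 fold change was -0.20 ± 0.09, with an adjusted p of 0.174 and of 0.0474 with the block.

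In SUR against LPS, which compares suramin with its absence in LPS-treated cells, 8 of 48 genes fell and 0 rose. Among all tested genes 7.93% were called lower and 9.29% higher, 17.2% in all. Without adjustment 20 of 48 had a p under 0.05, against 29.9% of all genes, and the 95% interval lay within 0.5 of 0 for 41 of 48, against 53.1%. The 8 were the core beta subunit Psmb2, the ATPase Psmc5, the non-ATPase subunits Psmd11, Psmd8, Psmd12, Psmd3 and Psmd1, and the PA28 subunit Psme2. Of the 17 regulatory particle genes, 17 had a negative log2 fold change (15 with upper-quartile scaling) and 6 were called, and their median was -0.18. The median was -0.14 for the 14 constitutive core genes, of which 1 was called, and -0.13 over the 48 genes, against -0.01 over all genes. This comparison shares its LPS libraries with the previous one, so the values of both are given side by side and are not independent of each other.

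The members' median stood -0.12 from that of all genes. With upper-quartile scaling the medians were -0.04 and 0.08. That scaling shifts all genes almost alike, so the distance of -0.12 could hardly change and its return is no separate result. On the log2(FPKM + 1) scale the distance was -0.09, with medians of 0.02 and 0.11. The calls in absolute terms moved with the scaling: upper-quartile scaling left 3 of the 8 lower (Psmd11, Psmb2 and Psmc5) and added Psmb9 as higher, against 5.46% and 14.1% of all genes, and limma on log2(FPKM + 1) called only Psmb2 lower and Psmb9 higher. With the replicate block, 28 of 48 genes were called lower, against 22.7% of all genes, and 3 higher (Psmb9, Psmf1 and Psme2b), against 22.6%. The 28 included 13 of the 17 regulatory particle genes and 10 of the 14 constitutive core genes. The block with upper-quartile scaling called 11 lower and 4 higher (Psmb9, Psmf1, Psmg1 and Psme2b). SUR libraries lay entirely below LPS libraries for 23 of 48 genes, against 17.2% of all genes, and entirely above for 2, Psmb9 and Psme2b, against 17.8%. Within all 3 replicate numbers SUR was lower for 37 of 48, against 35.7% of all genes, and higher for 5, against 33.7%.

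Psmb2, a core beta subunit without a catalytic site, varied little within LPS and within SUR. Its levels were 104.7, 101.2 and 95.7 CPM in CON, 109.7, 110.5 and 111.3 CPM in LPS and 87.7, 86.7 and 88.3 CPM in SUR. The SUR libraries were below every library of both other groups. Its log2 fold change in SUR against LPS was -0.34 ± 0.05, a fold of 0.792, with an adjusted p of 0.00339, and it remained called whichever of the 9 libraries was left out. Psmb2 is on chromosome 4 (126677637 to 126709715, GRCm38.p6).

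Psmd11, a subunit of the regulatory particle lid, had the largest fall. It was 115, 104 and 108 CPM in CON, 136, 120.5 and 128 CPM in LPS and 108, 98.5 and 95.2 CPM in SUR. The LPS libraries were the highest of the 3 groups in every replicate number, and CON and SUR overlapped. The log2 fold change in SUR against LPS was -0.35 ± 0.07, a fold of 0.785, with an adjusted p of 0.0126, which became 0.0572 without the SUR library numbered 3. In LPS against CON the same gene stood at 0.23 ± 0.07 with an adjusted p of 0.0636, and of 0.000691 with the replicate block.

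Psmc5, an ATPase, was 90.0, 83.6 and 88.8 CPM in CON, 96.7, 96.5 and 93.9 CPM in LPS and 78.6, 79.0 and 81.6 CPM in SUR. The 3 groups did not overlap, LPS being highest and SUR lowest. Its log2 fold change in SUR against LPS was -0.26 ± 0.05, with an adjusted p of 0.0102, and it too remained called whichever library was left out.

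Psmd8, also a lid subunit, was 467, 452 and 421 CPM in CON, 483, 521 and 484 CPM in LPS and 407, 442 and 412 CPM in SUR. CON and SUR overlapped, and all LPS libraries were higher than both. Its log2 fold change in SUR against LPS was -0.24 ± 0.07 with an adjusted p of 0.0393. Psmd12, another lid subunit, was 77.1, 75.5 and 79.5 CPM in CON, 85.5, 85.2 and 84.5 CPM in LPS and 68.7, 70.7 and 78.7 CPM in SUR. Here the SUR library numbered 3 reached the CON range, and the log2 fold change in SUR against LPS was -0.23 ± 0.06 with an adjusted p of 0.0400. Psmd3, at -0.20 ± 0.06 with an adjusted p of 0.0401, and Psmd1, a large scaffold subunit of the base, at -0.18 ± 0.05 with an adjusted p of 0.0454, completed the regulatory particle calls. These 4 were near the threshold and remained called in only 1 to 3 of the 9 fits that left out 1 library.

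**Figure D2:**
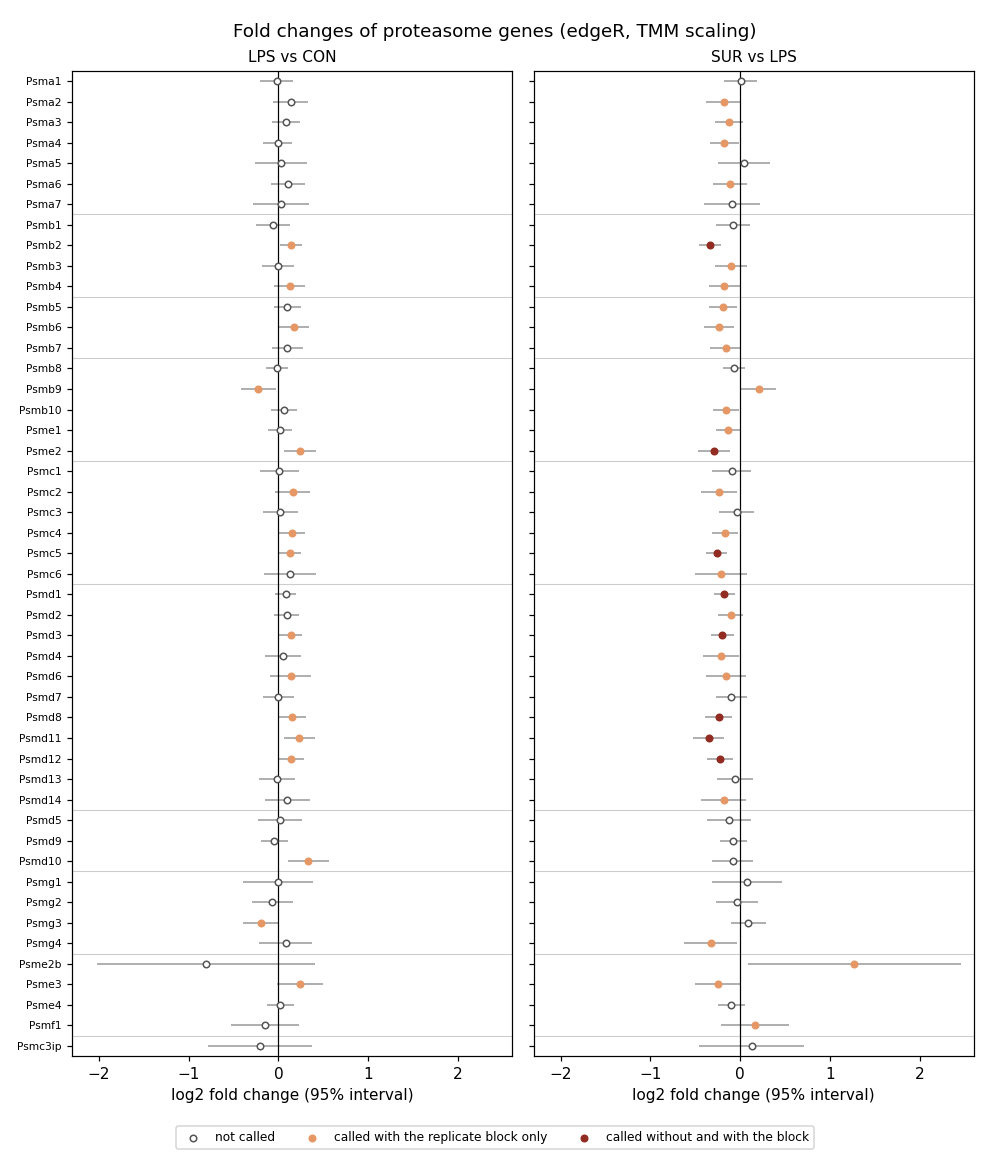
The points give the log2 fold change of the 48 tested genes in LPS against CON (left) and in SUR against LPS (right) with the 95% interval as a line, on the TMM scale. Open points were not called, light points were called with the replicate block only and dark points in both fits. On the left no gene is dark, and on the right 8 are, all below 0.

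The upstream sequence of Psmd11 is shown because this gene had the largest called change. The RefSeq start regions matched 42 of the 50 genes, without Psmb2, and were searched on both strands over the 250 bases before the start. The motifs were the GC box GGGCGG, the antioxidant response element core TGACNNNGC, the gamma-activated site TTCNNNGAA, the kappaB site (GGG and TTCC with 3 bases between) and the paired core of the interferon-stimulated response element (GAAA and GAAA with 2 bases between). The stretch below is chr11:80428365-80428614 on the plus strand of GRCm38.p6, and capitals mark a GC box.
Psmd11: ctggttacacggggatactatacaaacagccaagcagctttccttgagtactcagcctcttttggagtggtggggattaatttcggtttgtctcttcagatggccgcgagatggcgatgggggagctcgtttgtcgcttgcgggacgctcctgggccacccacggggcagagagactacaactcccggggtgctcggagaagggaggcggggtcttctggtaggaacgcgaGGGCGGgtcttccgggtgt
A GC box was found for 22 of 42 proteasome genes and for 32.9% of all 27025 promoters, the kappaB letters for 3 of 42 and 4.6%, and the interferon-stimulated letters for 3 of 42 (Psmb3, Psmd4 and Psmd9) and 3.04%. A match is a description of the letters and not a binding site.

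In SUR against CON, 0 of 48 genes were called by edgeR's quasi-likelihood test, against 0.425% of all genes (0.39% higher and 0.0355% lower). Without adjustment 4 of 48 had a p under 0.05, against 9.23% of all genes, DESeq2 called 1, Psmb2, and the replicate block called 1 higher, Psmd10, against 7.37% of all genes, and 3 lower, Psmb2, Psma4 and Psmd4, against 4.18%. Psmb2 had a log2 fold change of -0.20 ± 0.05, with an adjusted p of 0.222 without the block and of 0.0125 with the block. The median over the 48 genes was -0.08, against -0.01 over all genes, and 43 of 48 were negative. The 95% interval lay within 0.5 of 0 for 45 of 48 genes, against 66.7% of all genes. SUR libraries lay entirely below CON libraries for 9 of 48 genes, against 6.67% of all genes, and entirely above for 0, against 8.35%. Within all 3 replicate numbers SUR was lower for 30 of 48 genes, against 25.4% of all genes, and higher for 3, against 23.2%.

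The immunoproteasome genes did not move as a group. In LPS against CON none of the 5 was called, and in SUR against LPS 1 of 5, Psme2, fell. Psmb8, the inducible counterpart of Psmb5, was 85.5, 83.1 and 89.7 CPM in CON, 83.9, 84.2 and 87.0 CPM in LPS and 79.1, 82.6 and 81.8 CPM in SUR. LPS and CON overlapped, with a log2 fold change of -0.02 (95% interval -0.14 to 0.11), and all SUR libraries lay just below both, at -0.07 against LPS (95% interval -0.19 to 0.06, adjusted p 0.471). Psmb10, the counterpart of Psmb7, stood at 55.3 ± 3.09 CPM in CON (SD, n = 3), 57.6 ± 1.92 in LPS and 51.7 ± 1.41 in SUR. Its log2 fold change was 0.06 in LPS against CON (95% interval -0.08 to 0.20) and -0.16 in SUR against LPS, with an adjusted p of 0.131 and of 0.0212 with the block.

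The PA28 subunits, which form 1 ring together, differed in their values. Psme1 was 85.8 ± 1.26 CPM in CON, 86.8 ± 4.66 in LPS and 79.0 ± 2.22 in SUR, with a log2 fold change of 0.02 in LPS against CON (95% interval -0.12 to 0.15). In SUR against LPS it stood at -0.14 with an adjusted p of 0.159, and of 0.0248 with the block. Psme2 was 142, 123 and 138 CPM in CON, 172, 148 and 156 CPM in LPS and 134, 129 and 127 CPM in SUR. The LPS libraries were the highest in each replicate number and lay above both other groups. Psme2 stood at 0.24 ± 0.08 in LPS against CON, with an adjusted p of 0.0705 and of 0.00137 with the block, and fell by 0.29 ± 0.08 on the log2 scale in SUR against LPS, with an adjusted p of 0.0361. This call was lost in 6 of the 9 fits that left out 1 library, in which its adjusted p reached 0.121. The 2 genes lie 5912 bases apart on chromosome 14 with opposite strands.

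Psme2 is the only immunoproteasome gene called on the TMM scale without the block, so its upstream bases are shown. With upper-quartile scaling it was not called and Psmb9 was, and the block also called Psmb9, Psmb10 and Psme1. The bases are given without those that GENCODE vM21 places in an exon. The stretch is chr14:55591114-55591351 on the minus strand of GRCm38.p6, and capitals mark a GC box on the other strand.
Psme2: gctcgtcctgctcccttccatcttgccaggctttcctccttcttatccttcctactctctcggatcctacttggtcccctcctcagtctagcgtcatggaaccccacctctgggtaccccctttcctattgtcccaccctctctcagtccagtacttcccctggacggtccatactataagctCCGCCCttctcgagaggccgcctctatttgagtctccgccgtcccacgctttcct
None of the 4 other motifs was found in its 250 bases.

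Psmb9, the inducible counterpart of Psmb6, had its lowest values in LPS. It was 17.1, 17.8 and 16.8 CPM in CON, 13.6, 15.9 and 14.8 CPM in LPS and 16.5, 17.4 and 17.2 CPM in SUR, from 214 to 294 counts per library. All LPS libraries were below all CON and all SUR libraries, and CON and SUR overlapped. The log2 fold change was -0.23 ± 0.09 in LPS against CON, with an adjusted p of 0.112, and 0.21 ± 0.09 in SUR against LPS, with an adjusted p of 0.142. It was therefore not called, whereas with the replicate block the adjusted p was 0.0259 and 0.0355, and with upper-quartile scaling 0.0289 and 0.0433. Within numbers 1, 2 and 3 LPS minus CON was -0.33, -0.17 and -0.18 on the log2 scale.

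A ratio of 2 subunits within a library does not depend on library scaling. The FPKM ratio of Psmb9 to Psmb6 was 0.108, 0.121 and 0.115 in CON, 0.0738, 0.0972 and 0.0878 in LPS and 0.108, 0.125 and 0.123 in SUR. The LPS ratios were the lowest and did not overlap those of either other group. The ratio in LPS was 0.748 of that in CON and the ratio in SUR 1.38 times that in LPS (geometric means), and the two-sided exact permutation p was 0.1 for each, the smallest that 3 against 3 libraries allow. Adjusted over the 9 ratio comparisons it was 0.45.

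The ratio of Psmb8 to Psmb5 was 0.258 ± 0.0177 in CON, 0.238 ± 0.0173 in LPS and 0.256 ± 0.0126 in SUR, and the groups overlapped, with an exact permutation p of 0.3 in LPS against CON and 0.2 in SUR against LPS. That test does not use the pairing: within numbers 1, 2 and 3 the log2 ratio was lower in LPS than in CON in each, at -0.12, -0.12 and -0.11, and SUR minus LPS was 0.14, 0.12 and 0.06. The ratio of Psmb10 to Psmb7 was 0.216 ± 0.0106, 0.205 ± 0.00983 and 0.202 ± 0.00797, with an exact permutation p of 0.5 and 0.7. The 3 inducible genes together made up 16.8 ± 0.635% of the FPKM of the 6 catalytic genes in CON, 15.3 ± 0.904% in LPS and 16.5 ± 0.738% in SUR. The constitutive catalytic genes themselves were not called in the fit of all libraries without the block. Psmb6 was 200.2 ± 11.6 CPM in CON, 226 ± 14.0 in LPS and 192 ± 11.2 in SUR. In LPS against CON its log2 fold change was 0.17 ± 0.07, with an adjusted p of 0.161, and it was called higher with the block, with an adjusted p of 0.00295, so the denominator of the Psmb9 ratio was itself higher in LPS in that fit. In SUR against LPS it stood at -0.23 ± 0.07, with an adjusted p of 0.0641, of 0.000427 with the block and of 0.0188 by DESeq2. Psmb5 stood at -0.19 ± 0.07, with an adjusted p of 0.0996, and Psmb7 at -0.16 ± 0.07, with an adjusted p of 0.186, and both were called with the block. Psmb7 shares 405 of its 1160 exon bases with Nek6 on the opposite strand.

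**Figure D3:**
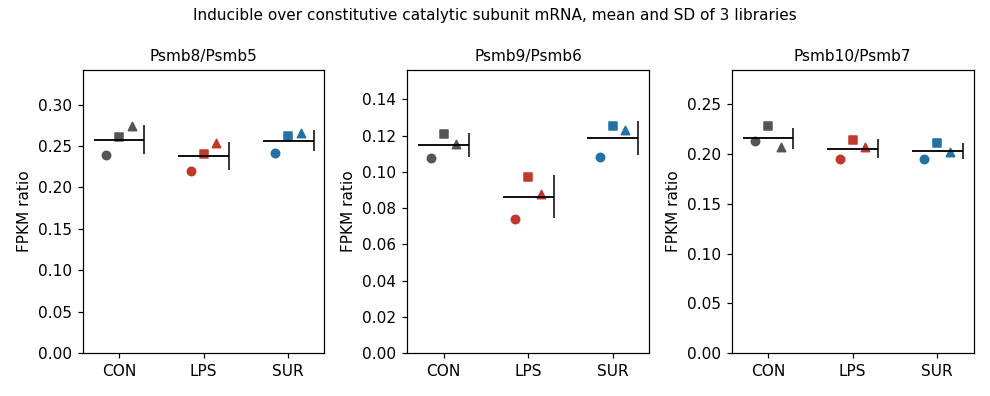
The points give the FPKM ratio of each inducible catalytic subunit to the constitutive one it can replace, per library, with the mean and SD of 3 libraries as black lines and shapes for the replicate number. In the middle panel the 3 LPS ratios, 0.0738 to 0.0972, lie below those of CON and SUR, 0.108 to 0.125, while the groups overlap in the outer panels.

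Psmb9 has a close neighbour, Tap1, which encodes a subunit of the transporter that carries proteasome products into the endoplasmic reticulum for class I loading. In RefSeq the 2 genes start 225 bases apart on opposite strands of chromosome 17, Psmb9 at 34182030 to 34187330 and Tap1 at 34187556 to 34197225 (GRCm38.p6). In GENCODE vM21 one Psmb9 transcript starts further upstream, and 212 of the 1681 exon bases of Psmb9 then lie over Tap1 exons. Tap1 was 93.2, 91.3 and 87.9 CPM in CON, 68.0, 73.3 and 69.0 CPM in LPS and 95.8, 98.9 and 92.5 CPM in SUR. The LPS libraries were all below both other groups, as they were for Psmb9. Tap1 fell by 0.37 ± 0.06 on the log2 scale in LPS against CON, with an adjusted p of 0.00213, and rose by 0.45 ± 0.06 in SUR against LPS, with an adjusted p of 0.00119, and both calls remained whichever of the 9 libraries was left out. How far reads of Tap1 enter the Psmb9 counts was not tested.

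The bases between both starts hold 1 GC box and none of the 4 other motifs, and Psmb8, in the same cluster, holds a gamma-activated site. These letters are shown with their flanks because Psmb9 and Tap1 start on either side of the shared region and Psmb8 lies next to them. Unlike the bases shown for Psme2, those of both pieces are placed in exons by GENCODE vM21, so they are upstream only of the RefSeq starts. Psmb8, at -0.11 in LPS against CON with upper-quartile scaling, was called lower there when the block was added, with an adjusted p of 0.0316, and whether it differs from Psmb9 was not tested. The pieces are chr17:34187368-34187397 on the minus strand and chr17:34198088-34198116 on the plus strand of GRCm38.p6, and capitals mark the motif.
Psmb9 to Tap1: tgcgcgatgatgGGGCGGggcctcagtctg
Psmb8: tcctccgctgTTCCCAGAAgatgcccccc
The gamma-activated letters were found for 2 of 42 proteasome genes, Psmb8 and Psmg1, and for 7.18% of all promoters.

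Other genes of class I peptide loading and its regulators moved in both directions. Of 21 tested, 4 rose and 2 fell in LPS against CON, 1 rose and 5 fell in SUR against LPS, and 1 rose in SUR against CON. Of all genes 8.98% rose and 9.36% fell, 9.29% rose and 7.93% fell, and 0.39% rose, in the same order. With the block 6 rose and 3 fell (20.1% and 21.7% of all genes), 3 rose and 7 fell (22.6% and 22.7%), and 3 rose and 3 fell (7.37% and 4.18%). Tapbp, the tapasin that bridges the transporter and class I molecules, was 93.1 ± 8.51 CPM in CON, 166 ± 12.4 in LPS and 94.1 ± 3.66 in SUR. It rose by 0.83 ± 0.08 in LPS against CON, with an adjusted p of 0.000231, and fell by 0.82 ± 0.08 in SUR against LPS, with an adjusted p of 0.00043. H2-K1, a class I heavy chain, rose by 0.70 ± 0.09, with an adjusted p of 0.000809, and fell by 0.44 ± 0.09, with an adjusted p of 0.0103. Reads of H2-K1 may be shared with near-identical class I genes. Irf8, a myeloid transcription factor, fell by 0.41 in LPS against CON, with an adjusted p of 0.0406, lost in 6 of the 9 fits that left out 1 library. Tpp2, a peptidase that trims proteasome products, rose by 0.33 in LPS against CON, with an adjusted p of 0.0328, and fell by 0.36 in SUR against LPS, with an adjusted p of 0.0218, and these calls were lost in 6 and in 4 of those 9 fits.

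Irf1, a transcription factor known to drive immunoproteasome genes, was 59.3, 37.4 and 23.3 CPM in CON, 131, 154 and 189 CPM in LPS and 132, 168 and 228 CPM in SUR. All LPS and SUR libraries were above all CON libraries. It rose by 1.98 ± 0.33 in LPS against CON, with an adjusted p of 0.00315, and by 2.14 ± 0.33 in SUR against CON, with an adjusted p of 0.0393, which was lost in 7 of the 9 fits that left out 1 library and reached 0.218 there. Tap2, the other transporter subunit, at -0.04 with an adjusted p of 0.796, and B2m, the class I light chain, at 0.07 with an adjusted p of 0.766, were not called in LPS against CON with or without the block.

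**Figure D4:**
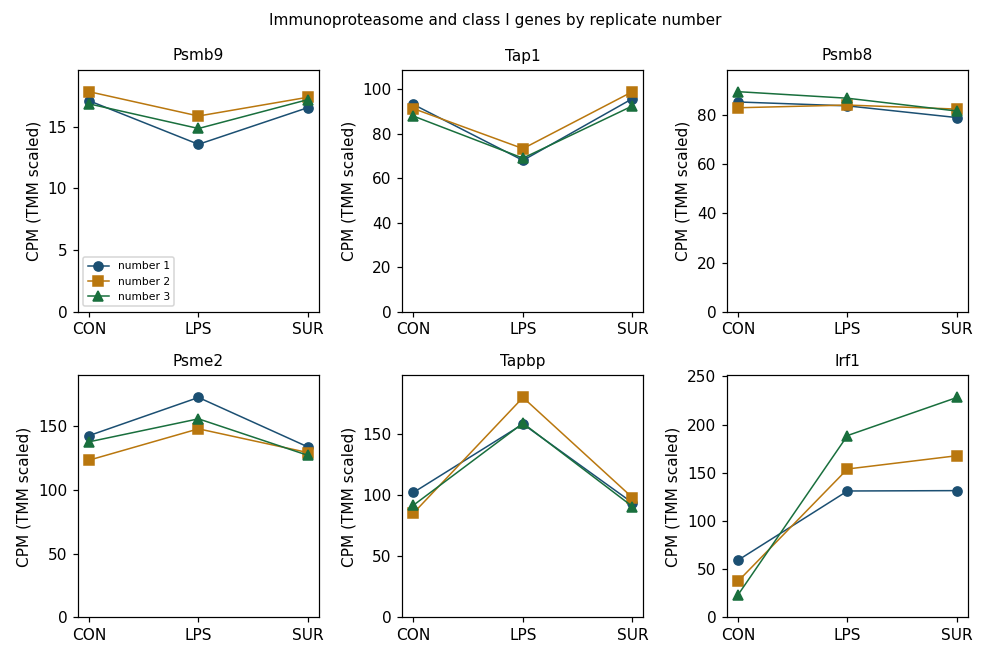
The panels give the CPM of 3 proteasome genes (Psmb9, Psmb8 and Psme2) and 3 genes of class I loading or its control (Tap1, Tapbp and Irf1) by group, with lines joining the libraries of the same replicate number and each axis starting at 0. Psmb9 and Tap1 are lowest in LPS in all 3 numbers, Psme2 and Tapbp are highest there, and Irf1 is high in both LPS and SUR.

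Proteasome genes are known to be raised together by the transcription factor Nfe2l1 (NRF1), which the protease Ddi2 activates, and some by Nfe2l2 (NRF2). Of 26 tested genes of other proteasome components and this axis, 4 rose and 1 fell in LPS against CON, against 8.98% and 9.36% of all genes, and 2 rose and 5 fell in SUR against LPS, against 9.29% and 7.93%. With the block 10 rose and 2 fell in the first comparison, against 20.1% and 21.7%, and 4 rose and 12 fell in the second, against 22.6% and 22.7%. Nfe2l2 was 134 ± 26.1 CPM in CON, 363 ± 36.7 in LPS and 182 ± 12.7 in SUR. It rose by 1.44 ± 0.14 in LPS against CON, with an adjusted p of 0.000184, and fell by 0.99 ± 0.14 in SUR against LPS, with an adjusted p of 0.00156. Nfe2l1 rose by 0.25 ± 0.06 in LPS against CON, with an adjusted p of 0.0181, a call that was lost without any 1 of the CON and LPS libraries numbered 2 or 3 and with upper-quartile scaling, where the adjusted p was 0.0937. It stood at -0.12 in SUR against LPS with an adjusted p of 0.212.

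Ddi2 was 91.5 ± 3.40 CPM in CON, 71.4 ± 3.03 in LPS and 90.0 ± 2.90 in SUR. It fell by 0.36 ± 0.06 in LPS against CON, with an adjusted p of 0.00305, and rose by 0.33 ± 0.06 in SUR against LPS, with an adjusted p of 0.00525. Adrm1, the ubiquitin receptor of the regulatory particle, whose symbol lies outside the pattern, was 129.5 ± 10.97 CPM in CON, 164 ± 12.7 in LPS and 112 ± 9.16 in SUR. It rose by 0.34 ± 0.09, with an adjusted p of 0.0314, and fell by 0.55 ± 0.09 in SUR against LPS, with an adjusted p of 0.00408. The rise was lost in 6 of the 9 fits that left out 1 library and with upper-quartile scaling, and the fall in none of these. Zfand5, a proteasome activator, rose by 1.27 ± 0.15 in LPS against CON, with an adjusted p of 0.000573, and fell by 0.53 ± 0.15, with an adjusted p of 0.0416, in SUR against LPS, the latter being lost in 6 of the 9 fits that left out 1 library. Pomp, the maturation chaperone of the core particle, was not called in any of the 3 comparisons, at -0.12, 0.01 and -0.11.

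The antioxidant response element core, through which both factors are known to bind, was found upstream of 5 of 42 proteasome genes (Psmb5, Psmb6, Psmc6, Psmd12 and Psmd9) and of 10.1% of all promoters. Psmb5 and Psmd12 are shown, again without bases that GENCODE vM21 places in an exon. Psmd12 was called lower in SUR against LPS, near the threshold. Psmb5 was not called in the reported fit. In that comparison it was called lower by DESeq2, with an adjusted p of 0.0392, and with the block, with an adjusted p of 0.00254. They are chr14:54618023-54618245 on the minus strand and chr11:107479278-107479483 on the plus strand of GRCm38.p6. Capitals mark the element core in Psmb5, and in Psmd12 the element core on the other strand, followed by 2 GC boxes on the other strand and a kappaB site.
Psmb5: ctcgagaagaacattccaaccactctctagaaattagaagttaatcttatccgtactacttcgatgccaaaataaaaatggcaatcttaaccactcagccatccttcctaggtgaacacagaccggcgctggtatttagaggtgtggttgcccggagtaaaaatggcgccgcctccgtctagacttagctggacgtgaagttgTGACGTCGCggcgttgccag
Psmd12: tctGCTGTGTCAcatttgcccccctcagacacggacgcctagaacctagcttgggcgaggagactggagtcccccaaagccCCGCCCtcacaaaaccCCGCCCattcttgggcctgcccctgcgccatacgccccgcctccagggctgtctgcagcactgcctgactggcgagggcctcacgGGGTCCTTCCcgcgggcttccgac

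The remaining genes were not called in any comparison when all 9 libraries were fitted on the TMM scale without the block. The 7 alpha ring genes had log2 fold changes from -0.02 to 0.13 in LPS against CON and from -0.18 to 0.04 in SUR against LPS, and 4 of the 7 were called lower in the latter with the block. Without the 3 libraries numbered 1 and without the block, Psma6 was called higher in LPS against CON, with an adjusted p of 0.0493, and Psma4 and Psma2 lower in SUR against LPS, with adjusted p of 0.0195 and 0.0490. Psmg4, a core assembly chaperone, was 13.5 ± 0.919 CPM in CON, 14.3 ± 0.788 in LPS and 11.4 ± 1.93 in SUR. In SUR against LPS its log2 fold change was -0.33 with the block, with an adjusted p of 0.0152, and its adjusted p was 0.0199 without the libraries numbered 1. Psme3, which caps proteasomes in the nucleus, was 254 ± 35.6 CPM in CON, 300.0 ± 18.8 in LPS and 252 ± 23.4 in SUR, and stood at 0.24 in LPS against CON with an adjusted p of 0.195, of 0.00466 with the block and of 0.00498 without the libraries numbered 1. Psme2b, with 4 to 57 counts per library, was 1.98 ± 0.763 CPM in CON, 1.12 ± 0.791 in LPS and 2.74 ± 0.581 in SUR. Its log2 fold change of 1.27 ± 0.52 in SUR against LPS had an adjusted p of 0.139, of 0.00351 with the block and of 0.0263 without the libraries numbered 1, and its interval, from 0.09 to 2.46, was the widest of the 48.

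The proteasome genes also varied between replicate numbers. The library numbered 1 was the highest in each of the 3 groups for 26 of 48 genes, against 27.7% of all genes, and the lowest in each for 3 (Psmd13, Psmd2 and Psmd5), against 25.8%. By class, number 1 was highest in every group for 5 of 7 alpha ring genes, 3 of 3 constitutive catalytic genes, 4 of 6 ATPases, 4 of 11 non-ATPase subunits and 1 of 5 immunoproteasome genes. Psmg1, a core assembly chaperone, was 32.6, 24.4 and 25.8 CPM in CON, 33.3, 24.3 and 25.1 CPM in LPS and 34.6, 26.7 and 25.9 CPM in SUR, so that the numbers differed more than the groups. Its library numbered 1 exceeded the mean of the other two by 0.38, 0.43 and 0.40 on the log2 scale in CON, LPS and SUR. The alpha subunit Psma7 showed 0.36, 0.24 and 0.36, whereas Psmd5, a chaperone of the base, showed -0.11, -0.33 and -0.15. Without the 3 libraries numbered 1, 16 genes were called lower and 1 higher in SUR against LPS, against 15.2% and 14.7% of all genes, and 8 higher and 0 lower in LPS against CON, against 15.7% and 14.4%. The labels do not say what a replicate number stands for.

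**Figure D5:**
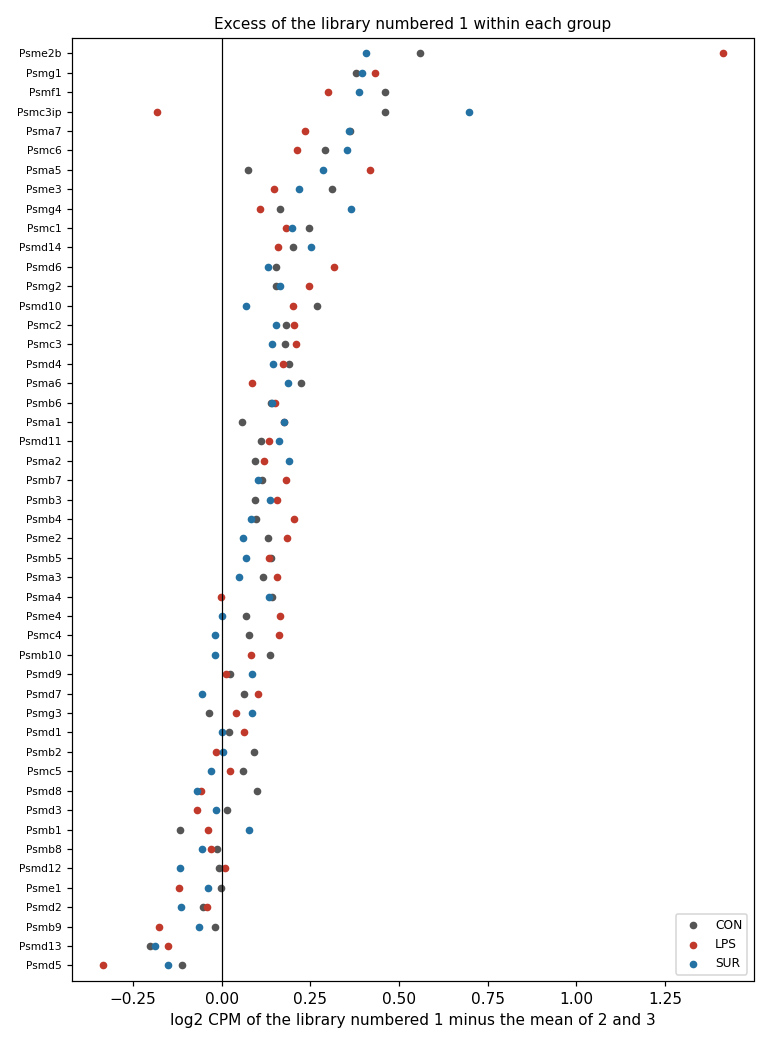
The points give, for each tested gene, the log2 CPM of the library numbered 1 minus the mean of the libraries numbered 2 and 3 of the same group, with colour for the group and genes ordered by the mean. Points to the right of 0 in all 3 colours, as for Psmg1 and Psma7, show a level above the other two libraries in every group, and Psmd13 and Psmd5 lie to the left.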

How the data were processed

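Of the software behind the table, HISAT2 2.0.4 and the GRCm38 (mm10) build are named per the submitters' processing notes. Which tool made the counts, with what strand setting and annotation, is not given in the sources used here. Expected counts were deposited by the authors as estimated reads per gene. Of these 93.4% were whole, and all were rounded before testing. The authors' FPKM values, per the file headers, are scaled for length and depth. The deposited TPM values were used to check the table and for nothing else.

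Genes were filtered with filterByExpr and scaled by TMM, and all 9 libraries entered 1 edgeR 4.0.16 quasi-likelihood fit (R 4.3.3) with a mean per group. P-values were adjusted by Benjamini-Hochberg over all tested genes at 0.05. The script was tested on simulated counts that held no effect of the replicate number. This checks the code and not how often differences as small as those of the members are found. Alternatives were DESeq2 1.42.0, limma 3.58.1 on log2(FPKM + 1) and log2(FPKM + 0.1), upper-quartile scaling, no filter, 2 groups only, left-out libraries and the replicate block. Over all tested genes, deviations from group means correlated at 0.435 to 0.801 between libraries of the same number and at -0.643 to 0.437 otherwise. The numbers thus pair the samples, clearly for number 1 and weakly for 2 against 3. The CON library numbered 3 correlated at 0.447 with the SUR library numbered 3 and at 0.421 with that numbered 2.

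Coordinates and start regions came from RefSeq on GRCm38.p6, which matched 50 of 50 genes, because 5 deposited rows span over a megabase. Exons came from GENCODE vM21. The members and lists were chosen with earlier results of these data known. Named in full were the 5 immunoproteasome genes, their 3 counterparts, up to 6 called members per direction and, from each companion list, up to 4 called genes per comparison plus Tap1, Tap2, B2m, Pomp, Nfe2l1 and Irf1; 1 further gene is not reported here. Psmd3, Psmd1, Psmd10, Psmg3, Psmg4, Psme3, Psme2b and Psmg1 were chosen after their values were seen. Figures used matplotlib 3.10.9 (Python 3.11.15).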

Additional observations from a re-analysis of the deposited data

How the results depend on the processing

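Counting error bears on the scarce transcripts such as Psme2b, and 3 libraries per group limit all tests. In LPS against CON, where the reported fit called 0 genes, DESeq2 called 3, upper-quartile scaling 2, limma on either FPKM scale 2, the replicate block 16, the block with upper-quartile scaling 13, the fit without the libraries numbered 1 8, and that with the block 14; leaving out 1 library gave 0 to 4. In SUR against LPS, where it called 8, DESeq2 called 10, all lower and with all 8 among them, and the fit with no filter 7. Upper-quartile scaling called 4, limma on either FPKM scale 2, the 2 groups alone 4, the block 31 and the block with upper-quartile scaling 15. The fit without the libraries numbered 1 called 17, and that with the block 26. Leaving out 1 library gave 3 to 9. In SUR against CON, where it called 0, DESeq2 called 1, the block 4, the block with upper-quartile scaling 5, the fit without the libraries numbered 1 1, and that with the block 3. The block without the libraries numbered 1 was chosen after seeing the data. For the chosen single genes, members and companions, 1600 values had the same status as in the reported fit, 107 gained a call and 117 lost it. The 1600 include values that were called in neither fit, so they do not count calls that were kept. Of the called values 0 changed sign. The causes were not tested. With counts in place of FPKM, the 9 ratio differences stayed within 1 SD of their values. The mean difference within replicate numbers equals the difference of the group means, so that setting could not differ. Leaving out 1 of 3 libraries cannot move a difference by as much as 1 SD, so staying within it is no test. Across the settings, differences near 0 changed sign (Psmb8 to Psmb5 in SUR against CON, Psmb10 to Psmb7 in SUR against LPS).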
